A study of Bos indicus with 8 samples.

Results

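The genes described here are the gonadotropin receptors and the core of the steroid synthesis pathway in bovine cumulus cells: FSHR, LHCGR, SCARB1, STAR, CYP11A1, FDX1, FDXR, CYP19A1, HSD17B1 and NR5A2. They were taken by symbol from the platform annotation of the array. Of the 10 genes, 9 had at least 1 probe, of 15229 gene symbols on the array, and they were covered by 16 of 43794 probes. FDXR was not analysed here. A probe was kept when its signal stood above the negative control spots in 3 or more of a group's 4 pools, and 13 of the 16 probes were kept, covering 8 genes.

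Cumulus cells surround the oocyte in the follicle and, like the granulosa cells of the follicle wall with which they share an origin, read follicle-stimulating hormone (FSH) through its receptor and the second messenger cyclic AMP. Steroid synthesis starts with cholesterol, which is taken up from lipoproteins, carried into the mitochondrion and cut to pregnenolone. In the follicle, later enzymes turn it into progesterone, and turn androgens that come largely from theca cells into oestrogens. Granulosa cells of a growing follicle are known for aromatase and oestradiol, and those of an ovulating follicle for a turn towards progesterone.

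The study cultured cumulus-oocyte complexes for 6 h with or without adenosine and compared the RNA of their cumulus cells on two-colour arrays. The adenosine group received 3 mM adenosine, and the control group did not. Both groups received 0.5 µg/ml recombinant human FSH, 1 µg/ml oestradiol, gentamicin, pyruvic acid at 0.2 mM and fetal bovine serum at 10%, so no group shows these genes without FSH or oestradiol. The organism is labelled Bos indicus, and the complexes came from follicles of 3 to 6 mm in slaughterhouse ovaries. There were 4 adenosine pools and 4 control pools, each labelled with a number per pool of 10 whose unit is not stated. Each adenosine pool was set against the control pool of the same number on 2 arrays with the dyes swapped, which gave 8 arrays and 4 pool pairs. The labels do not say whether different animals gave the pools. The p-values therefore describe the spread among these 4 pairs only. In such RNA pools, fewer cells of a type and less RNA per cell cannot be told apart.

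Every value below is on a log2 scale. A ratio is adenosine over control, with its SD over the 4 pool pairs, and a level is the normalised single-channel value of 1 pool, the mean of its 2 arrays, in arbitrary units. Adjusted p-values come from limma over all 31948 kept probes, and a gene is said to rise or fall where that p is under 0.05. The share of probes above the detection level was 71.1% to 87.4% per channel on 7 arrays. The array of pair 3 with adenosine in Cy3 stood apart, with 45.4% of the probes above it in the adenosine channel and 41.3% in the control channel. The precision of all values is limited by the number of pool pairs. Across the array 11883 probes, or 37.2% of those kept, passed the threshold, 5976 of them higher and 5907 lower with adenosine. With median centring of the ratios in place of loess, 4720 were higher and 7523 lower.

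Adenosine was accompanied by more FSHR and HSD17B1 transcript and by less SCARB1, CYP11A1 and FDX1 transcript. Read from the brightest kept probe of each gene, 2 of the 8 measured genes rose (25%), 3 fell (37.5%) and 3, STAR, CYP19A1 and NR5A2, did not pass the threshold. With median centring 1 rose and 4 fell. The median ratio of the 8 was -0.38. Among all 12320 named genes measured in the same way, 42.5% were called, 21.7% higher and 20.8% lower with adenosine, and the median was 0.00. The share of genes called was therefore high everywhere on this array, and 5 of 8 is set against that level. At the probe level, 6 of the 13 kept probes were called, against 37.2% of all kept probes, and for 3 of the 13 the adenosine and control pools did not overlap, against 27.8%. By gene, the pools did not overlap for 1 of the 8, FDX1, against 31.1% of all named genes, of which 16.8% had every adenosine pool below every control pool.

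**Figure D1:**
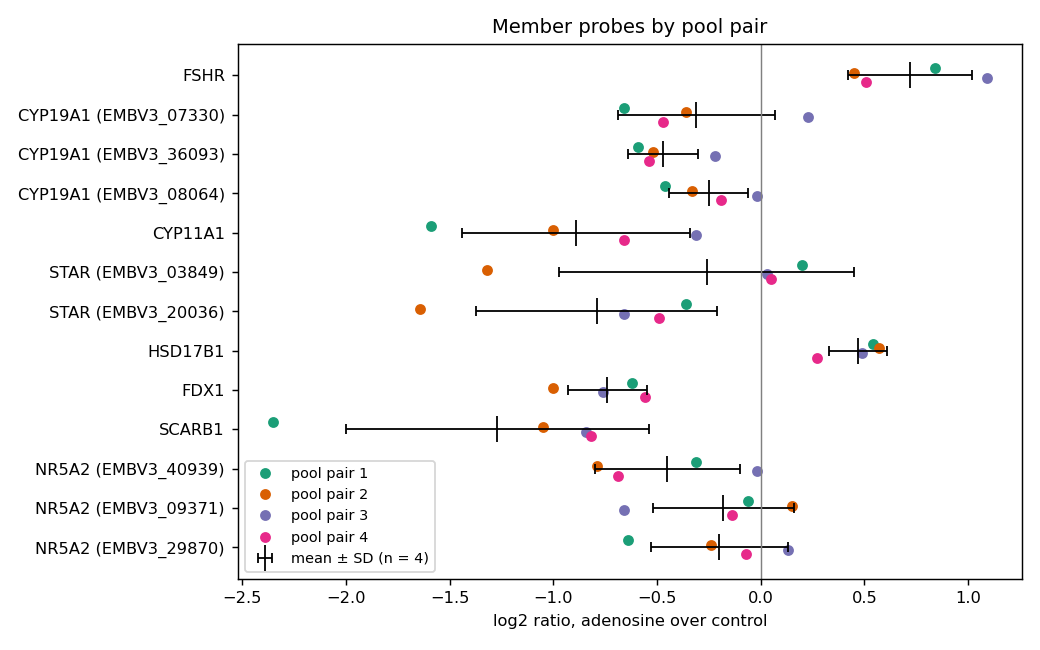
Log2 ratio of adenosine over control (horizontal axis) for the 13 kept probes of the 8 genes. Each coloured point is 1 pool pair and the black bar is the mean with its SD (n = 4). All 4 points of FSHR and HSD17B1 lie right of 0, between 0.27 and 1.09, and all 4 points of SCARB1, CYP11A1 and FDX1 lie left of it, between -2.35 and -0.31, while the points of CYP19A1 probe EMBV3_07330 and of STAR probe EMBV3_03849 fall on both sides.

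FSHR encodes the receptor through which granulosa and cumulus cells respond to FSH. Its probe EMBV3_21603 had levels of 10.45, 9.96, 9.20 and 8.92 in adenosine pools 1 to 4, against 9.61, 9.51, 8.11 and 8.41 in control pools 1 to 4. The adenosine pool was the higher one in each of the 4 pairs, but adenosine pools 3 and 4 lay below control pools 1 and 2, so the groups overlapped. The ratios of pairs 1 to 4 were 0.84, 0.45, 1.09 and 0.51. Their mean of 0.72 ± 0.30 (SD, n = 4) is a 1.65-fold higher level with adenosine (95% interval 0.39 to 1.06 on the log2 scale, limma adjusted p = 0.0146). The ratio was above that of 91.5% of the named genes. The call was lost with median centring (0.38, adjusted p = 0.105), without pair 1 (0.69, adjusted p = 0.0578) and without pair 4 (0.80, adjusted p = 0.0508).

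LHCGR encodes the receptor for luteinising hormone, which granulosa cells of the wall acquire late in follicle growth. Neither of its 2 probes was kept. Probe EMBV3_33299 stood above the detection level in 6 of 8 channel values with adenosine and in 3 of 8 in control, with levels of 6.16 to 6.17 in adenosine pools and 6.06 to 6.11 in control pools. Probe EMBV3_30987 was above it in 0 of 8 channel values of either group, at 5.89 to 5.92 in adenosine pools and 5.84 to 5.91 in control pools. Both probes were thus at or near background in all 8 pools, and no fold is given for LHCGR.

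SCARB1 encodes a receptor for high-density lipoprotein that takes up cholesterol esters. Its probe EMBV3_42803 had levels of 8.47, 7.89, 7.72 and 7.60 in adenosine pools 1 to 4, against 10.82, 8.94, 8.57 and 8.42 in control pools 1 to 4. The adenosine pool was lower in every pair, and adenosine pool 1 lay above control pool 4, so the groups overlapped by that much. Pair 1 had the largest difference of the 4. The ratios were -2.35, -1.05, -0.84 and -0.82, with a mean of -1.27 ± 0.73 (SD, n = 4). That is 2.40-fold lower with adenosine (95% interval -2.08 to -0.45, limma adjusted p = 0.0355), and only 5.31% of the named genes had a lower ratio. Without pair 1 the ratio was -0.90 and the call stayed (adjusted p = 0.00714). The call was lost without pair 2 (-1.34, adjusted p = 0.0918), pair 3 (-1.41, adjusted p = 0.0726) or pair 4 (-1.41, adjusted p = 0.0905).

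STAR encodes the protein that brings cholesterol into the mitochondrion. Of its 3 probes, EMBV3_03849 was the brightest, with levels of 6.62, 6.73, 6.50 and 6.48 in adenosine pools 1 to 4, against 6.42, 8.04, 6.47 and 6.43 in control pools 1 to 4. Control pool 2 was far above the other 7 pools, which lay between 6.42 and 6.73. The ratios were 0.20, -1.32, 0.03 and 0.05 (mean -0.26 ± 0.71, SD, n = 4; 95% interval -1.06 to 0.54, limma adjusted p = 0.543). Without pair 2 the mean turned to 0.09 (adjusted p = 0.26).

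The second STAR probe, EMBV3_20036, had levels of 6.19, 6.31, 6.28 and 6.31 in adenosine pools 1 to 4, against 6.55, 7.95, 6.94 and 6.80 in control pools 1 to 4. All adenosine pools lay below all control pools here, and control pool 2 was again the highest. Its ratios were -0.36, -1.64, -0.66 and -0.49, with a mean of -0.79 ± 0.58 (SD, n = 4; 95% interval -1.44 to -0.13, limma adjusted p = 0.0694). Without pair 2 the mean of EMBV3_20036 was -0.50 and passed the threshold (adjusted p = 0.0204). It also passed with a normexp offset of 0 (-1.72, adjusted p = 0.0128) and in the authors' value table (-1.25, adjusted p = 0.0109). The third probe, EMBV3_18125, was above the detection level in 0 of 8 channel values with adenosine and 1 of 8 in control, and was not kept. The STAR probes therefore differ, and no call is made for the gene.

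Control pool 2 also held oocyte transcripts. In that pool ZP2 and ZP4, which encode proteins of the zona pellucida, had levels of 9.55 and 8.45. In the other 7 pools ZP2 lay between 6.07 and 6.62 and ZP4 between 6.28 and 6.62. ZAR1, an RNA-binding protein of the oocyte, stood at 8.30 in control pool 2 and at 5.98 to 6.25 elsewhere, and GDF9, an oocyte growth factor, at 7.22 and at 6.10 to 6.30. Of these 4 genes only ZP4 was read from a probe that passed the detection filter. Another ZP2 probe, EMBV3_00847, was kept and showed no such difference, averaging 6.20 with adenosine and 6.22 in control (ratio -0.01 ± 0.07). The other 4 oocyte markers of the list of 8 (BMP15, ZP3, DAZL and NLRP5) did not stand out there. The summed linear level of the 8 markers was 656 to 722 in adenosine pools, against 642, 1949, 657 and 664 in control pools 1 to 4. The part of oocyte RNA in the STAR values of pair 2 was not tested.

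CYP11A1 encodes the side-chain cleavage enzyme of the inner mitochondrial membrane, which makes pregnenolone from cholesterol. Its probe EMBV3_31025 had levels of 9.0, 8.60, 8.03 and 7.62 in adenosine pools 1 to 4, against 10.60, 9.60, 8.34 and 8.28 in control pools 1 to 4. The adenosine pool was the lower one in each pair, and the groups overlapped because pools 1 and 2 lay above pools 3 and 4 in both groups. The ratios were -1.59, -1.0, -0.31 and -0.66. The mean of -0.89 ± 0.55 (SD, n = 4) is 1.85-fold lower with adenosine (95% interval -1.51 to -0.27, limma adjusted p = 0.0426). This call lay close to the threshold: it was lost with no detection filter (adjusted p = 0.0556), without pair 1 (-0.65, adjusted p = 0.0596), pair 2 (-0.85, adjusted p = 0.129) or pair 4 (-0.97, adjusted p = 0.117).

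FDX1 encodes ferredoxin, which hands electrons to CYP11A1 and other mitochondrial enzymes after taking them from the ferredoxin reductase that FDXR encodes. Its probe EMBV3_20721 had levels of 10.39, 10.40, 10.64 and 10.48 in adenosine pools 1 to 4, against 11.01, 11.40, 11.40 and 11.04 in control pools 1 to 4. Every adenosine pool lay below every control pool. The ratios of -0.62, -1.0, -0.76 and -0.56 average -0.74 ± 0.19 (SD, n = 4), a 1.66-fold lower level with adenosine (95% interval -0.96 to -0.51, limma adjusted p = 0.00488). Among the 8 measured genes FDX1 alone was called under all 17 alternative settings, with ratios between -1.08 and -0.59 and adjusted p-values between 7.54e-05 and 0.0243. The smallest p came from the fit on the 8 array ratios, which enters both arrays of a pair, with a correlation of 0.2. The replicates are the 4 pool pairs, so that p overstates the precision. Another of the 17, the single-channel fit with a replicate block, repeats the paired test. FDX1 has 1 probe, so averaging the probes of a gene leaves its ratio at -0.74. The other detection filters leave it at -0.74 too and move only its p-value, so these settings add little support.

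**Figure D2:**
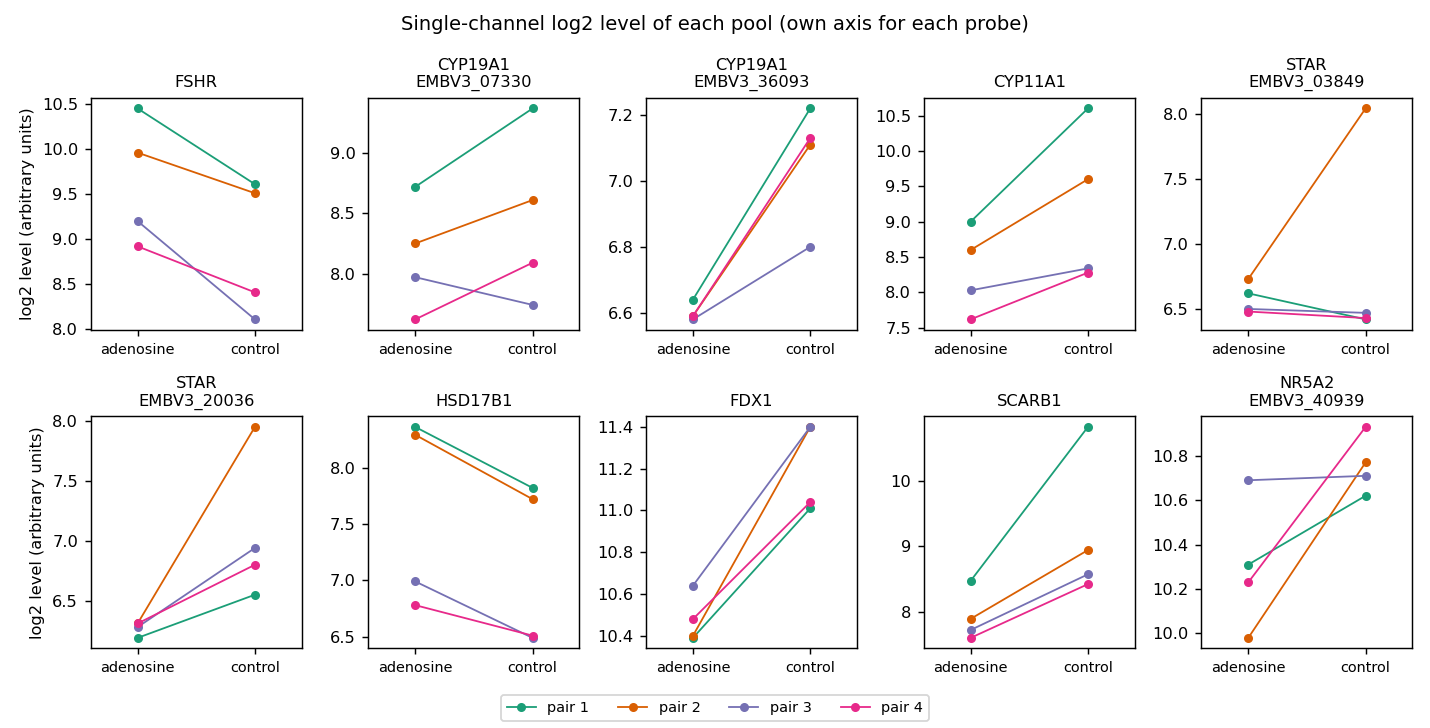
Single-channel log2 level (vertical axis, arbitrary units, own range for each panel) of 10 probes in the adenosine pools (left) and control pools (right). Each coloured line joins the 2 pools of 1 pair. FDX1 lies at 10.39 to 10.64 with adenosine and at 11.01 to 11.40 in control with no overlap, whereas for FSHR, CYP11A1, SCARB1 and HSD17B1 the pools of pairs 1 and 2 lie above those of pairs 3 and 4 within each group, and control pool 2 stands alone in the STAR panels.

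CYP19A1 encodes aromatase, which makes oestrogens from androgens. Its brightest probe, EMBV3_07330, had levels of 8.72, 8.25, 7.97 and 7.62 in adenosine pools 1 to 4, against 9.37, 8.61, 7.74 and 8.09 in control pools 1 to 4. The groups overlapped, and pair 3 went the other way from the remaining 3 pairs. The ratios were -0.66, -0.36, 0.23 and -0.47, and the mean of -0.31 ± 0.38 (SD, n = 4; 95% interval -0.75 to 0.12) did not pass the threshold (limma adjusted p = 0.211). Without pair 3 it was -0.49 (adjusted p = 0.0226).

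The second CYP19A1 probe, EMBV3_36093, was dimmer, with levels of 6.64, 6.59, 6.58 and 6.59 in adenosine pools 1 to 4, against 7.22, 7.11, 6.80 and 7.13 in control pools 1 to 4. All adenosine pools lay below all control pools. The ratios were -0.59, -0.52, -0.22 and -0.54, with a mean of -0.47 ± 0.17 (SD, n = 4), or 1.38-fold lower with adenosine (95% interval -0.66 to -0.27, limma adjusted p = 0.0105). The background offset compresses the ratios of dim probes: with an offset of 0 the mean of this probe was -0.90. The call was lost without pair 4 (-0.44, adjusted p = 0.0599).

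The third CYP19A1 probe, EMBV3_08064, had a mean ratio of -0.25 ± 0.19 (SD, n = 4, limma adjusted p = 0.077), from levels of 6.33 to 6.48 in adenosine pools and 6.40 to 6.84 in control pools. It passed the threshold without pair 3 (-0.33, adjusted p = 0.043). The 3 CYP19A1 probes thus had negative mean ratios, and 1 of the 3 passed.

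HSD17B1 encodes the dehydrogenase that reduces oestrone to oestradiol in granulosa cells. Its probe EMBV3_00423 had levels of 8.36, 8.29, 6.99 and 6.78 in adenosine pools 1 to 4, against 7.82, 7.72, 6.49 and 6.51 in control pools 1 to 4. As for FSHR, the adenosine pool was the higher one in each pair while the groups overlapped, since pools 1 and 2 of either group lay above pools 3 and 4 of either group. The ratios were 0.54, 0.57, 0.49 and 0.27. Their mean of 0.47 ± 0.14 (SD, n = 4) is a 1.38-fold higher level with adenosine (95% interval 0.31 to 0.63, limma adjusted p = 0.00668). With an offset of 0 the mean was 0.71. Aromatase and HSD17B1 act one after the other. The mean ratio of CYP19A1 was negative, but its brightest probe did not pass (-0.31, limma adjusted p = 0.211) and 1 of its 3 probes did. No opposite change of the 2 genes is therefore claimed.

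NR5A2 encodes liver receptor homologue, a nuclear receptor that switches on steroid synthesis genes and is needed for ovulation in mice. Its brightest probe, EMBV3_40939, had levels of 10.31, 9.98, 10.69 and 10.23 in adenosine pools 1 to 4, against 10.62, 10.77, 10.71 and 10.93 in control pools 1 to 4. The adenosine pool was lower in every pair except pair 3, and the groups overlapped. The arrays of pair 3 had opposite signs, at -0.35 where adenosine carried Cy5 and 0.31 where it carried Cy3. Their mean of -0.02 is therefore not read as a fall. The ratios were -0.31, -0.79, -0.02 and -0.69, and the mean of -0.45 ± 0.35 (SD, n = 4; 95% interval -0.86 to -0.05) did not pass (limma adjusted p = 0.0798).

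The result for NR5A2 sat near the threshold. The gene passed in 7 of 17 alternatives, a count that includes the mean over its 3 probes given below and otherwise reads probe EMBV3_40939. That probe passed without pair 3 (-0.60, adjusted p = 0.0386) and with median centring (-0.81, adjusted p = 0.027). It also passed with pair 3 taken from its array with adenosine in Cy5 alone (-0.54, adjusted p = 0.0164). That setting was chosen after seeing the data. It drops the array of pair 3 with a positive ratio, so it could only lower the mean and adds no support. The probe passed with adenosine in Cy5 only (-0.73, adjusted p = 0.0131) and not with adenosine in Cy3 only (-0.18, adjusted p = 0.395). Probe EMBV3_09371 had a mean of -0.18 ± 0.34 (SD, n = 4, limma adjusted p = 0.393), with levels of 8.29 to 10.08 in adenosine pools and 8.84 to 10.14 in control pools. Probe EMBV3_29870 had a mean of -0.20 ± 0.33 (SD, n = 4, limma adjusted p = 0.314), with levels of 7.62 to 7.87 in adenosine pools and 7.49 to 8.39 in control pools. The mean over the 3 probes was -0.28 and passed (adjusted p = 0.00564).

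**Figure D3:**
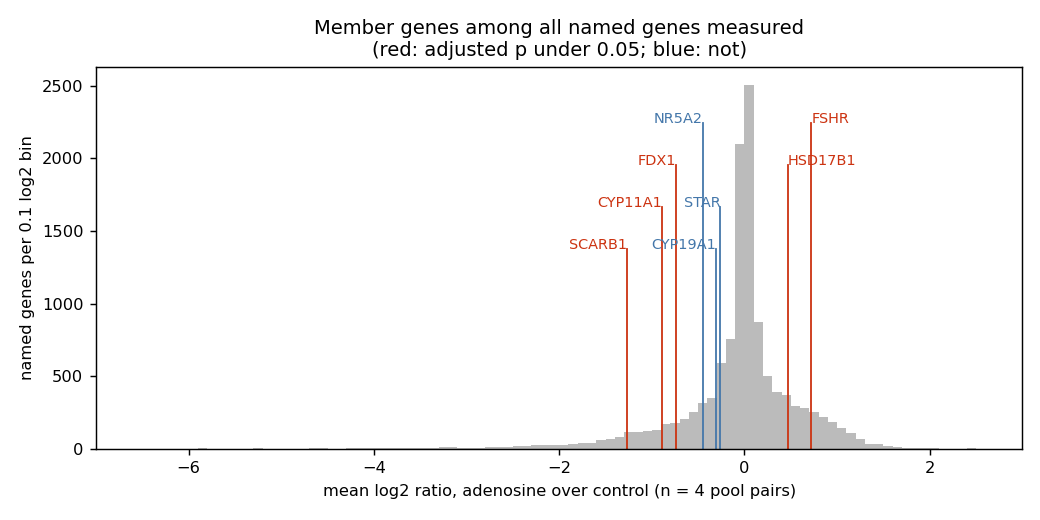
Distribution of the mean log2 ratio of adenosine over control (horizontal axis, n = 4 pool pairs) over 12320 named genes, as genes per bin (vertical axis). Labelled lines mark the 8 measured genes, red where the adjusted p was under 0.05 and blue where it was not. SCARB1 at -1.27 lies furthest left of the 8 and FSHR at 0.72 furthest right, inside a distribution that reaches well beyond both.

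Within each group, FSHR, CYP11A1, SCARB1 and HSD17B1 were higher in pools 1 and 2 than in pools 3 and 4. For SCARB1 the SD over the pairs was larger than that of 98.7% of the named genes, for CYP11A1 larger than that of 96.2%, and for STAR probe EMBV3_03849 larger than that of 98.6%. Most of the calls rested on the pairing: when the pools were compared with no pairing, 1 of the 8 genes, FDX1, was called. Unpaired, the adjusted p was 0.346 for FSHR, 0.345 for CYP11A1, 0.146 for SCARB1 and 0.597 for HSD17B1. With pair 3 taken from its array with adenosine in Cy5 alone, 6 of the 8 were called. The gene added was NR5A2, with the limit given above. The 5 genes called above kept their direction, at 0.75 for FSHR, 0.45 for HSD17B1, -1.27 for SCARB1, -0.87 for CYP11A1 and -0.78 for FDX1.

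Each slide held 1 dye orientation, so dye and slide cannot be told apart. The mean ratio had the same sign in both orientations for all 13 kept probes. In 5 of the 13 it differed between them at an adjusted p under 0.05, against 56.1% of all kept probes. NR5A2 probe EMBV3_40939 had a mean ratio of -0.73 in the Cy5 orientation (adenosine labelled with Cy5) and -0.18 in the Cy3 orientation (difference -0.54, limma adjusted p = 1.2e-05). CYP19A1 probe EMBV3_07330 had -0.47 in the Cy5 orientation and -0.15 in the Cy3 orientation (difference -0.32, adjusted p = 8.7e-05). FDX1 had -0.87 and -0.60 in the same order (difference -0.27, adjusted p = 0.00107). HSD17B1 had 0.34 in the Cy5 orientation and 0.59 in the Cy3 orientation (difference -0.25, adjusted p = 0.00245). STAR probe EMBV3_20036 differed by 0.16 (adjusted p = 0.00911). CYP11A1, at -0.89 in both, and SCARB1, at -1.24 and -1.29, showed no such difference past the threshold, and FSHR stood at 0.77 and 0.68.

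**Figure D4:**
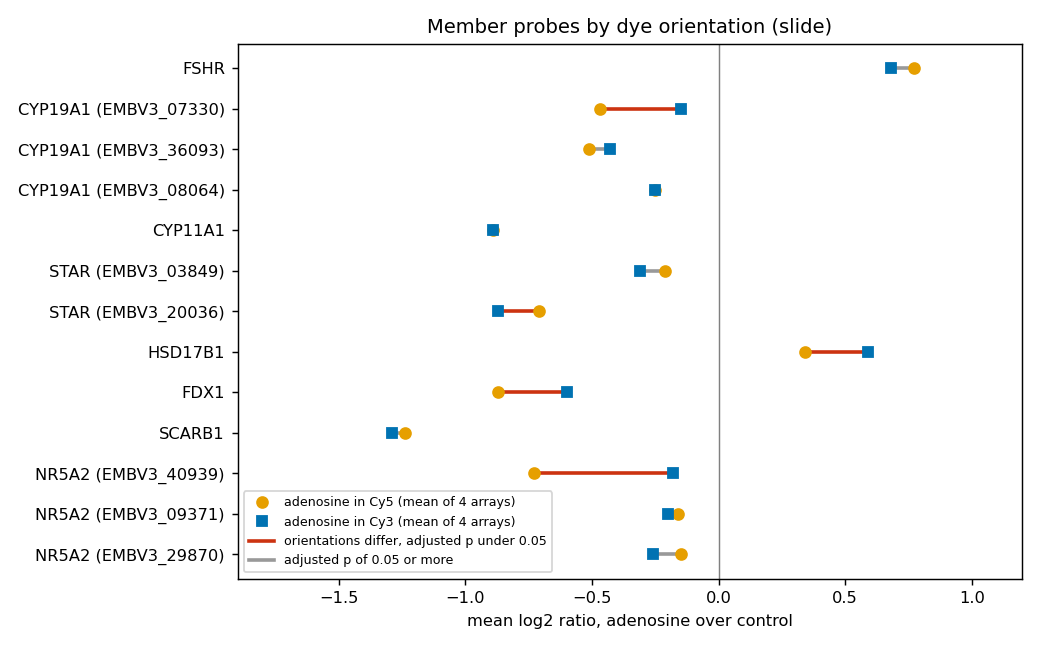
Mean log2 ratio of adenosine over control (horizontal axis) of the 13 kept probes in the 4 arrays with adenosine in Cy5 (circles) and the 4 with adenosine in Cy3 (squares). Red lines join orientations that differed at an adjusted p under 0.05. No line crosses 0, and the longest belongs to NR5A2 probe EMBV3_40939, with its circle at -0.73 and its square at -0.18.

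Beyond these genes, a list of 50 other genes of steroid synthesis, cholesterol handling and their regulation was read in the same fit. Probes were found for 42 of them, and 32 were measured. Of the 32, 10 rose (31.2%), 4 fell (12.5%) and 18 did not pass the threshold, so 43.8% were called, against 42.5% of all named genes. With median centring, 8 rose and 6 fell. The median ratio was 0.01, and the pools of the groups did not overlap for 14 of the 32, against 31.1% of all named genes. Some of the 18 were dim, among them POR, CYP11B1 and CGA, with mean control levels of 6.33, 6.33 and 6.17. For such genes a ratio near 0 can reflect little signal, and no lack of change is claimed. With pair 4 left out, 8 of the 32 were called.

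Genes of cholesterol movement and storage went in both directions. ACBD3, a Golgi protein that binds the mitochondrial translocator protein TSPO and protein kinase A, had levels of 11.05, 10.45, 11.15 and 10.65 in adenosine pools 1 to 4, against 14.12, 14.29, 14.07 and 14.09 in control pools 1 to 4. No adenosine pool came near a control pool. Its mean ratio of -3.32 ± 0.41 (SD, n = 4) is 9.97-fold lower with adenosine (limma adjusted p = 0.000997), and its other 2 probes stood at -2.80 and -1.0. NPC1, which moves cholesterol out of lysosomes, had levels of 7.94, 7.08, 7.5 and 7.51 in adenosine pools, against 10.97, 8.89, 8.95 and 9.46 in control pools. It fell 4.18-fold (mean ratio -2.06 ± 0.68, SD, n = 4, limma adjusted p = 0.00787), with pair 1 showing the largest difference, as for SCARB1. NPC2, its partner inside the lysosome, rose instead (0.89 ± 0.16, SD, n = 4, limma adjusted p = 0.00219). SOAT1, which esterifies cholesterol for storage, fell (-0.72 ± 0.30, SD, n = 4, limma adjusted p = 0.0152), a call lost without pair 2 (-0.65, adjusted p = 0.0561) or pair 4 (-0.78, adjusted p = 0.0539).

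The steroid-converting enzymes and their helpers named by the smallest p were as follows. HSD17B11, a dehydrogenase found on lipid droplets, had levels of 10.99, 11.67, 11.45 and 11.99 in adenosine pools 1 to 4, against 9.60, 10.17, 10.13 and 10.36 in control pools 1 to 4, with no overlap. It rose 2.75-fold (1.46 ± 0.14, SD, n = 4, limma adjusted p = 0.000664). CYB5A, the cytochrome that assists the androgen-making step of CYP17A1, rose 2.54-fold (1.35 ± 0.44, SD, n = 4, limma adjusted p = 0.00769). Its other 2 kept probes were dimmer and stood at 0.34 and 0.25, so that the mean over the 3 CYB5A probes was 0.65 (adjusted p = 0.00545). HSD17B8, a dehydrogenase of mitochondria, rose (0.86 ± 0.10, SD, n = 4, limma adjusted p = 0.00105), and its other 3 kept probes stood at 0.66, 0.61 and 0.08. SULT2A1, which adds sulphate to steroids and had a dim probe, also rose (0.39 ± 0.04, SD, n = 4, limma adjusted p = 0.00159). HSD11B1, which regenerates active glucocorticoid, had a small fall by its brightest probe (-0.11 ± 0.05, SD, n = 4, limma adjusted p = 0.0447) that was lost in 10 of 17 alternatives, each of the 4 with a pair left out among them (adjusted p = 0.0977 without pair 1, 0.0989 without pair 2, 0.113 without pair 3 and 0.12 without pair 4). A second kept HSD11B1 probe, EMBV3_04455, fell by more (-0.23 ± 0.08, SD, n = 4, limma adjusted p = 0.0129), with every adenosine pool below every control pool.

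HSD3B1, which turns pregnenolone into progesterone, had levels of 8.98, 7.96, 7.71 and 7.01 in adenosine pools 1 to 4, against 8.55, 8.55, 7.21 and 7.45 in control pools 1 to 4. It was higher with adenosine in pairs 1 and 3 and lower in pairs 2 and 4, and its mean ratio of -0.02 ± 0.57 (SD, n = 4) did not pass (limma adjusted p = 0.949). CYP17A1, the androgen-making enzyme of theca cells, stood above the detection level in 3 of 8 channel values with adenosine and 4 of 8 in control, and was not kept.

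**Figure D5:**
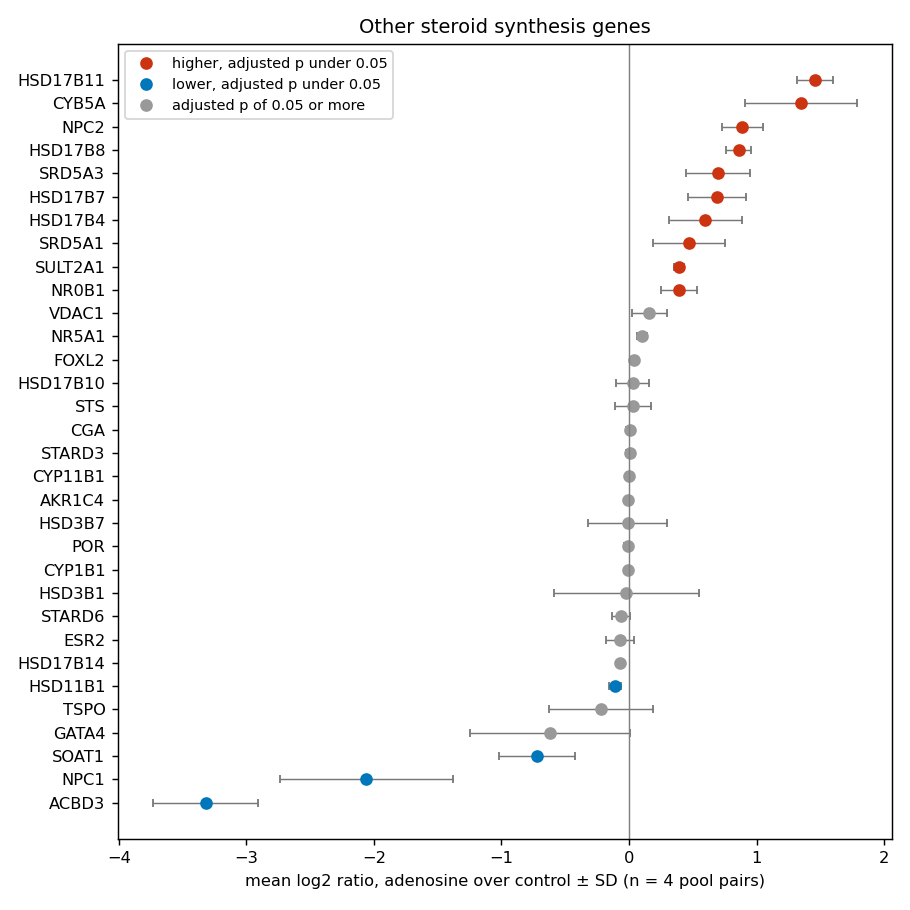
Mean log2 ratio of adenosine over control with its SD (horizontal axis, n = 4 pool pairs) for the 32 measured genes of the list of other steroid synthesis genes, ordered by ratio. Red marks genes higher and blue genes lower with adenosine at an adjusted p under 0.05, and grey the rest. Most genes sit within a narrow band around 0, some of them with dim probes whose ratios the background offset compresses. HSD17B11 at 1.46 is the highest, and ACBD3 at -3.32 and NPC1 at -2.06 lie far below the others.

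The markers of cumulus and granulosa cells were also looked up. Of 8 listed, 7 were measured and AMHR2 was not kept. INHA, a subunit of inhibin, rose (0.91 ± 0.20, SD, n = 4, limma adjusted p = 0.00328), as did SERPINE2, a protease inhibitor secreted by granulosa cells (0.81 ± 0.20, adjusted p = 0.00399), and AMH (0.49 ± 0.31, adjusted p = 0.0444), while WT1 fell (-0.41 ± 0.18, adjusted p = 0.0179) and 3 did not pass. Among those 3 was GJA1, the main gap junction protein of cumulus cells, whose 2 probes had ratios of -0.81 ± 0.71 (adjusted p = 0.105) and -0.55 ± 0.55 (adjusted p = 0.142). The WT1 value is that of its brightest probe. Its other 2 kept probes had ratios of 0.02 ± 0.03 (limma adjusted p = 0.656) and -0.21 ± 0.12 (adjusted p = 0.0466). FOXL2, a defining transcription factor of granulosa cells, stood above the detection level in 7 of 8 channel values of each group, but at dim levels, averaging 6.21 with adenosine and 6.17 without. The summed linear level of the 8 markers was 54355 to 65992 in adenosine pools, against 35304 to 44297 in control pools. That sum mostly follows SERPINE2, the brightest probe of the list, with levels of 15.20 to 15.50 in adenosine pools and 14.44 to 14.74 in control pools. The markers did not move in 1 direction, and their part in the results above was not tested.

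Markers of other cell types were read in the same way. Of 5 theca markers, CYP17A1 was near background and INSL3 had a ratio of 0.04 ± 0.06 (SD, n = 4, limma adjusted p = 0.404). ACTA2, a smooth muscle actin that other cells also express, rose (0.69 ± 0.16, adjusted p = 0.00366). PTCH1 (brightest probe 0.22 ± 0.67, adjusted p = 0.583) and NR2F2 (kept probes -0.08 and 0.07, adjusted p = 0.0715 and 0.0799) did not pass. The summed theca level was 7023 to 13264 in adenosine pools and 3977 to 9421 in control pools. That sum mostly follows ACTA2, which stood at 12.52 to 13.60 in adenosine pools and 11.64 to 13.08 in control pools. Of 4 leukocyte markers, PTPRC had levels of 8.58, 7.88, 9.62 and 9.97 in adenosine pools 1 to 4, against 8.66, 7.71, 10.44 and 10.18 in control pools 1 to 4. PTPRC was thus higher in pools 3 and 4 of both groups, the pools in which FSHR, CYP11A1 and HSD17B1 were lower. Its part in them was not tested. Other genes split the pools in the same way. INHA, AMH and ACTA2 were lower in pools 3 and 4 of each group, INHA at 13.84, 14.12, 13.30 and 13.43 in adenosine pools 1 to 4. WT1 (brightest probe) and TSPO were higher there, WT1 at 6.39, 6.34, 7.31 and 7.22 in adenosine pools 1 to 4. The other leukocyte markers did not share the pattern of PTPRC. CD68 had levels of 7.25, 7.01, 6.88 and 6.72 in control pools 1 to 4, and 6.34 to 6.45 in adenosine pools. CD14 and CD3E were dim, at 6.04 to 6.15 and 6.25 to 6.36 over all pools. The summed leukocyte level was 471 to 1238 in adenosine pools and 487 to 1657 in control pools, and its differences between pools mostly follow PTPRC. The 4 endothelial markers summed to 300 to 303 in adenosine pools and 292 to 313 in control pools, with PECAM1 above the detection level in 0 of 8 channel values of either group.

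Across the 8 pools, the named genes whose levels followed each of 3 genes most closely were listed by Pearson's correlation, as a description: both pools of a pair share arrays, and the best of many genes are shown. FSHR was followed by LYPLA2 (r = 0.9963), ACTG2 (r = 0.9891) and RAD54L (r = 0.9873). CYP19A1 was followed by PRLH (r = 0.9841), CNN3 (r = 0.9812) and RHBDF1 (r = 0.9808). For STAR probe EMBV3_03849 the closest were LOC781152 (r = 0.9995), COCH (r = 0.9971) and ZAR1L (r = 0.9963), and these values rest on control pool 2.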

How the data were processed

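The authors deposited 1 scanner file per array. Per the file headers, each of 45220 spots has a foreground intensity (mean) and a local background (median) for the 532 nm channel, read as Cy3, and the 635 nm channel, read as Cy5, with no normalization. RNA had been amplified in repeated rounds and labelled chemically, per the labels' protocols. The authors' deposited value table holds log2 ratios, found by comparison with the scanner values to run as adenosine over control (array medians 0.00566 to 0.0524). The sources used here do not give its normalization and centring. In limma 3.58.1 (R 4.3.3), background was corrected with normexp (offset 50), each array was normalized by loess with 1426 control and empty spots at weight 0, and the 2 arrays of a replicate number were averaged. A kept probe exceeded the mean plus 2 SD of 153 negative control spots in both arrays of 3 or more pools of a group. The 4 ratios were tested against 0 (lmFit, eBayes), and p-values were adjusted by Benjamini-Hochberg over 31948 probes, with a threshold of 0.05. Levels used Aquantile scaling. The fit was tested on simulated data, where 49% of log2 changes of 0.5 and 78% of log2 changes of 1 were recovered, with 3.05% false calls. A gene that did not pass may therefore still have changed.

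Same-numbered arrays pair the pools by the labels. Their deviations correlated between 0.784 and 0.933, and those of different numbers between -0.687 and 0.23. The platform annotation, which can be old, gives 21790 of 43794 probes 1 gene symbol and the other 22004 none. All 10 symbols were found in a RefSeq gene table. Each gene stands for its brightest kept probe. Named were all 10 genes with every probe, from the list of 50 the 5 genes with the smallest p in each direction past the threshold (only 4 fell) with HSD3B1 and CYP17A1, the 3 genes most like FSHR, CYP19A1 and STAR, and the cell type markers. One further item of the rule is not reported here. The genes and lists were chosen with earlier results of these data known. Alternatives were another normalization, background correction, filter, starting table, single dye orientation, left-out pairs, unpaired and array-level fits, probe averaging and, chosen after seeing the data, pair 3 from 1 array.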

Additional observations from a re-analysis of the deposited data

Results flagged for a closer look

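Of 39 sets of 4 values (the pair ratios, adenosine levels and control levels of the kept probes), 3 held a value far from the other 3 by Dixon's criterion at the 95% level, where chance alone gives about 1 in 20. STAR probe EMBV3_03849 had a ratio of -1.32 in pair 2, against 0.03 to 0.20 in the other pairs, and a level of 8.04 in control pool 2, against 6.42 to 6.47 in the other control pools. SCARB1 had a ratio of -2.35 in pair 1, against -1.05 to -0.82 in the other pairs.

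The ratio of adenosine over control differed between the arrays with adenosine in Cy5 and those with adenosine in Cy3 (limma on the within-pair difference) for 5 probes. The differences were -0.54 for NR5A2 probe EMBV3_40939, -0.32 for CYP19A1 probe EMBV3_07330, -0.27 for FDX1, -0.25 for HSD17B1 and 0.16 for STAR probe EMBV3_20036.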

How the results depend on the processing

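Of 381 single-gene and single-probe values under the alternatives, 331 kept their direction and side of the threshold, 27 lost the call, 19 gained one and 4 changed sign. Probes called numbered 11883 as reported, 6606 to 9697 with a pair left out, and 7515 in the unpaired single-channel fit with no replicate block. With the replicate number as a replicate block the single-channel fit gave the same 11883 probes and 5 of the 8 genes. That fit is the paired test in another form, so this outcome was fixed in advance and adds no support. Its values are counted among the 331. Probe averaging of a gene with 1 kept probe and the other detection filters also leave the ratio as reported and move only the p-values. Genes called numbered 5 of 8 as reported, 2 to 6 with a pair left out and 1 unpaired. Of the 32 other steroid synthesis genes 14 were called, and 8 to 12 with a pair left out. Dye orientation differences were called in 5 of 13 probes as reported, 12 with median centring, 8 with no background correction and 1 in the authors' value table. STAR probe EMBV3_03849 ranged from -0.41 to 0.09 with a pair left out, and HSD3B1 from -0.20 to 0.16. HSD3B1 stood at 0.02 with adenosine in Cy3 only. The causes were not tested. Where a pair was left out, fewer pairs remained for the test. Signal near background limited LHCGR, CYP17A1 and the dim probes of STAR and CYP19A1.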

Other observations

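Further genes of the steroid synthesis list, chosen here after their values were seen, rose beside those described above. SRD5A3 and SRD5A1, reductases of the steroid reductase family, had mean ratios of 0.70 and 0.47. HSD17B7, which also takes part in cholesterol synthesis, stood at 0.69. HSD17B4, a peroxisomal enzyme of fatty acid oxidation, stood at 0.60. NR0B1, a nuclear receptor that restrains steroid synthesis genes, stood at 0.39. NR5A1, the close relative of NR5A2, did not pass the threshold. LYPLA2, ACTG2 and RAD54L, whose levels followed FSHR, had mean ratios of 0.15 ± 0.06, 0.63 ± 0.27 and 0.29 ± 0.05 (SD, n = 4), and ZAR1L, which followed STAR probe EMBV3_03849, of -0.47 ± 1.10. CD68, a macrophage marker, fell (-0.56 ± 0.21, SD, n = 4, limma adjusted p = 0.0112).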
